A study of Mus musculus with 24 samples.

Results

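The genes described here serve the lamellar body, the organelle in which alveolar type II cells of the lung store surfactant, and the lipid and protein processing that fills it. The members were chosen by gene name, as the non-control probes of the array that carry the names Abca3, Lamp3, Slc34a2, Napsa, Ctsh, Chka, Pcyt1a and Lpcat1. These 8 genes had 12 of the 55681 probes, 4 for Chka, 2 for Lpcat1 and 1 for each other gene. RNA came from primary murine alveolar type II cells grown at an air-liquid interface for 3 days. In the NaHS experiment the cells were then given NaHS at 100 µM, a fast donor of hydrogen sulfide, or the vehicle (DMEM medium), for 24 h or 6 h. In the GYY4137 experiment cells received 100 µM GYY4137, a slow hydrogen sulfide donor, for 24 h in 85% O2 (hyperoxia) or in 21% O2 (normoxia). Each of the 6 groups had 4 arrays, so that NaHS and its vehicle had 16 and GYY4137 had 8. The labels give no strain, sex or age of the mice and no statement that arrays came from separate animals or cultures, so the p-values measure the spread between arrays. The 8 GYY4137 arrays are all labelled with the donor, and vehicle cells in 85% O2 or 21% O2 were not analysed here.

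Surfactant is mostly phosphatidylcholine with a small set of surfactant proteins. Type II cells make the lipid through choline kinase and the CDP-choline route, reshape its acyl chains, pump it into lamellar bodies, which are related to lysosomes, and release it into the airspace. The same cells take surfactant back up and reuse it, and proteases of the organelle cut the precursors of the hydrophobic surfactant proteins.

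Each level below is the log2 array signal minus the 75th percentile of its array, so that a level is read against the other levels of the same probe and not against other genes. Differences are log2 differences of group means with their SE from limma, p-values are adjusted by Benjamini-Hochberg over all genes of a comparison, and an adjusted p under 0.05 is called. Between 54.8% and 77.6% of probes lay well above background on an array, and 0 member spots were saturated or flagged as outliers. The arrays of the NaHS experiment lay on 2 slides, each with 2 arrays of every group, and 16704 of 33148 genes differed between these slides. In the GYY4137 experiment the 85% O2 arrays lay on 1 slide and the 21% O2 arrays on another, so slide and oxygen level cannot be told apart. Among markers of the labelled cell type, Sftpc (surfactant protein C) was above background on all 24 arrays and Sftpa1 (surfactant protein A) was not on 2 arrays in 85% O2 and 1 vehicle array at 24 h. Markers of fibroblasts and smooth muscle were also measured, 7 of 8 and 7 of 7 of them above background on every array. Their signals were high. Group means ran from 8.53 to 8.99 for Acta2 (smooth muscle) and from 7.25 to 7.65 for Col1a1 (fibroblast). For Sftpc they ran from 1.36 to 4.28. Levels of different probes do not give shares of cells, and the makeup of the cultures was not tested.

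Of the 8 genes, 7 passed the filter on low signals in both experiments, and Slc34a2 passed in neither. With GYY4137, 1 of the 7, Lamp3, was called between 85% and 21% O2, and it fell. Abca3 missed the threshold (adjusted p = 0.0703) and was called with the replicate number as a block (limma, adjusted p = 0.0436). Most other fits did not call it. Of all 34530 genes tested, 15.8% were called in that comparison, 3535 higher and 1917 lower. Centring arrays on the median gave 1957 higher and 3340 lower, so the direction of small differences there depends on the scaling. In NaHS against vehicle 0 of the 7 genes were called at 24 h or at 6 h, beside 0% of 33148 genes at either time (limma), and 0 of the 7 had an unadjusted p under 0.05, beside 734 genes at 24 h and 196 at 6 h. Both counts lie below the share of 0.05 of all genes that chance alone gives on average. The fit leaves the difference between slides in the spread of the arrays, so its SE and intervals can be too wide.

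The sequences of 3 probes are shown to fix which stretch of a transcript a level stands for: for Lpcat1 and Chka the probe whose sign differed from that of the probe standing for the gene in 85% against 21% O2, and for Napsa its single probe. The Chka probe lies at position 692 of its transcript record, on which 2 of the other 3 lie at 1711 and 2018, and the third was designed on another record. The 2 Lpcat1 probes were designed on different records. Positions are those of the array design on mm9. The Lpcat1 probe lies at chr13:73651927-73651986, the Chka probe at chr19:3864699-3864758 and the Napsa probe at chr7:51840710-51841119. The Napsa coordinates span 410 bases for 60 bases of probe, so that this probe bridges a gap. In the Lpcat1 probe 1 reading frame is open up to a final TAG, in capitals.
Lpcat1 probe: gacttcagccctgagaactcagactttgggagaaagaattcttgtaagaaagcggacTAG
Chka probe: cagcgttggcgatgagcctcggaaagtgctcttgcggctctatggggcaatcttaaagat
Napsa probe: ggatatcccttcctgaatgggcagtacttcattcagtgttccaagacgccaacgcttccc

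**Figure D1:**
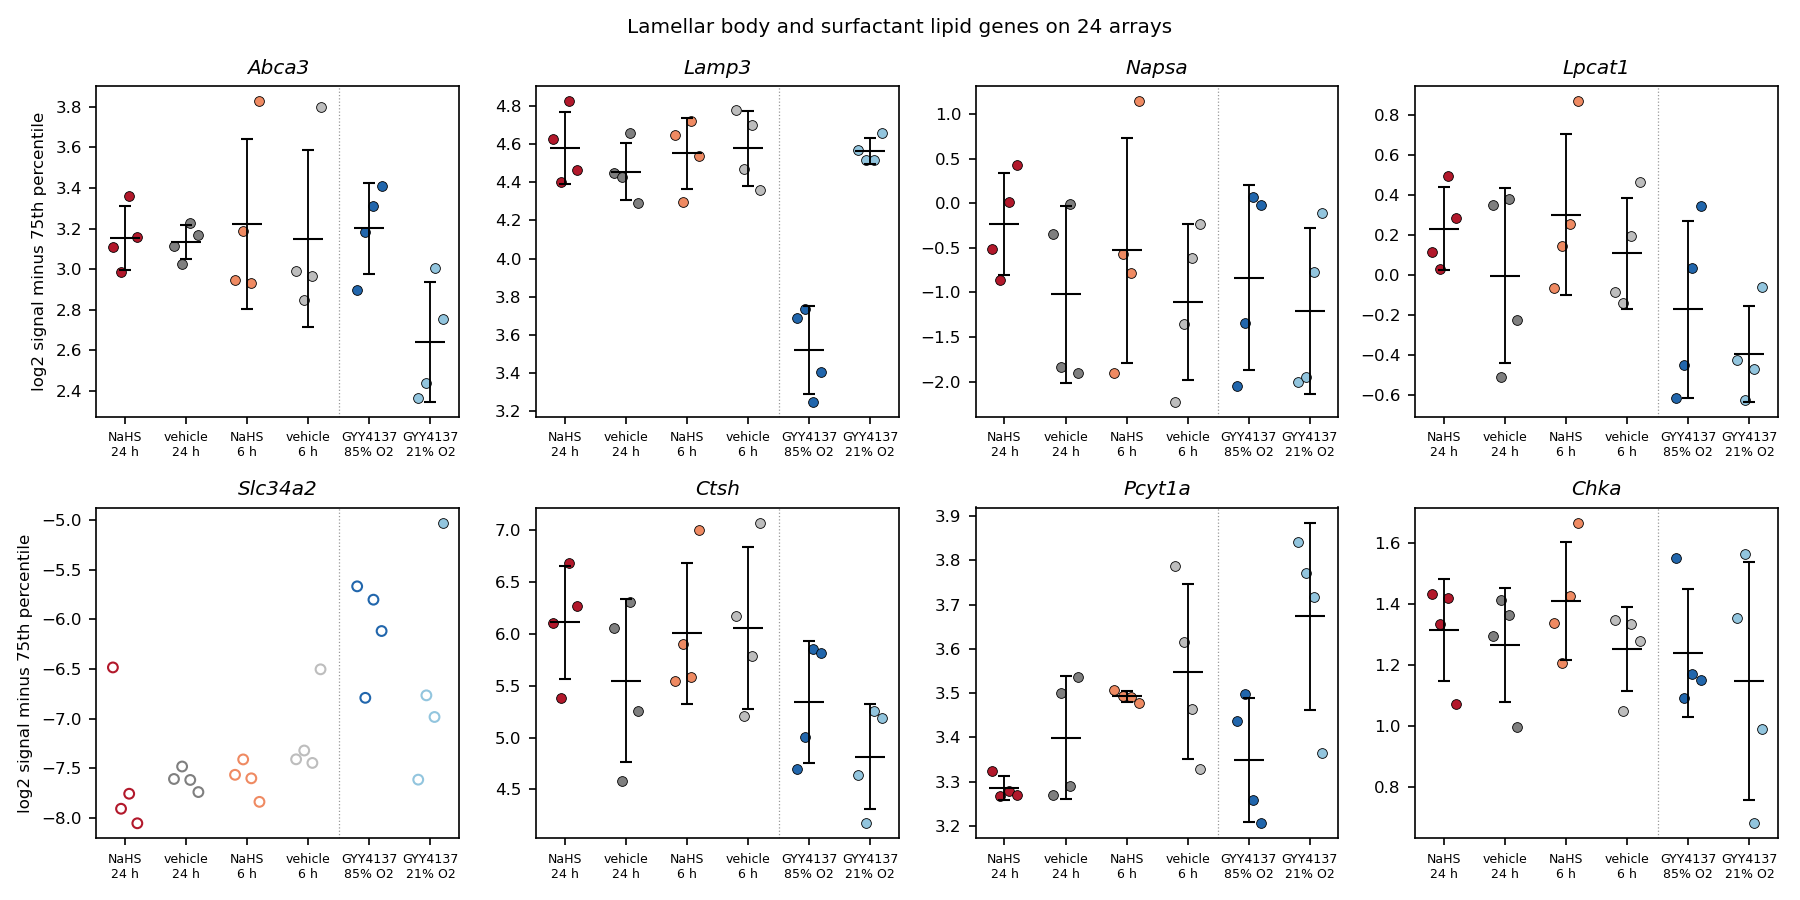
Level of each gene on the 24 arrays (y axis: log2 signal minus the array's 75th percentile; x axis: groups of 4 arrays; horizontal bars: mean; whiskers: SD; open circles: not well above background). For Lamp3 the 4 arrays in 85% O2 sit between 3.25 and 3.74, below all other arrays, and Slc34a2 is above background on 1 array of 24.

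Lamp3 encodes a lysosome-associated membrane glycoprotein that marks the limiting membrane of lamellar bodies, and in immune tissue it marks mature dendritic cells. Its probe, at chr16:19653488-19653547 on mm9, read 3.69, 3.74, 3.25 and 3.41 in 85% O2, against 4.57, 4.51, 4.52 and 4.66 in 21% O2. The groups did not overlap, and the lowest array in 21% O2 stood above the highest in 85% O2. The mean was 3.52 ± 0.23 in 85% O2 and 4.57 ± 0.068 in 21% O2 (SD, n = 4 each). Lamp3 fell by 1.04 ± 0.14 (SE) on the log2 scale, to 0.485 of its signal in 21% O2 (limma, adjusted p = 0.00432). The 95% interval of that ratio ran from 0.39 to 0.604. In RNA of a whole culture, fewer cells of a type and less RNA per cell cannot be told apart.

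The Lamp3 difference was called in each of the 8 fits that left out 1 array, where it ran from -1.12 to -0.95, and with the replicate number as a block its adjusted p was 0.0174. Median centring gave -1.19. Between the 2 slides of the NaHS experiment Lamp3 differed by -0.27 (slide 2 minus slide 1, limma, adjusted p = 0.00211), the only member called there. The size of a slide difference between the slides of the GYY4137 experiment was not tested.

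Some marker levels moved in the same comparison. Of 8 fibroblast markers 1, Thy1, was called and fell by 1.05 ± 0.16, and 0 of 8 had a positive difference. The mean level over the fibroblast list ran from 2.65 to 3.81 in 85% O2 and from 3.38 to 4.02 in 21% O2. Over 11 other type II markers 0 were called, and their mean level ran from -0.75 to 0.41 in 85% O2 and from -0.60 to 0.77 in 21% O2. Of 12 macrophage and dendritic cell markers 0 were called and 9 had a positive difference. Their mean level was -2.66 in 85% O2 and -3.17 in 21% O2. In 85% O2 Itgax averaged -3.42 ± 2.11 and C1qa -4.22 ± 1.33 (SD, n = 4 each). In 21% O2 they averaged -4.27 ± 1.44 and -5.56 ± 0.14, with C1qa above background on 1 of 4 arrays. The dendritic cell genes Ccr7 and Cd83 averaged -2.86 ± 0.49 and -4.94 ± 0.69 in 85% O2, against -2.55 ± 0.43 and -4.64 ± 0.61 in 21% O2 (SD, n = 4 each), with overlapping arrays, and Cd83 was above background on 3 of 4 arrays in 85% O2. Of 75 markers over 10 cell types 7 were called, or 9.33% beside 15.8% of all genes, and 4 of the 7 calls were lost in some fit. Besides Thy1 they were the smooth muscle genes Notch3 (1.36 ± 0.24) and Des (-1.29 ± 0.25), the endothelial gene Tek (1.17 ± 0.28), the ciliated cell genes Foxj1 (1.46 ± 0.34) and Tppp3 (0.77 ± 0.19) and the lymphocyte gene Cd8a (0.68 ± 0.12). Without 85% O2 replicate 4 another probe stood for Cd8a and gave -0.37 ± 0.52. The part of these cell types in the Lamp3 result was not tested.

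NaHS left Lamp3 within the spread of the arrays. At 24 h it read 4.63, 4.40, 4.83 and 4.46 with NaHS, against 4.45, 4.43, 4.66 and 4.29 with vehicle, a difference of 0.12 ± 0.14 (95% interval -0.17 to 0.42). At 6 h it read 4.65, 4.30, 4.72 and 4.54 with NaHS, against 4.78, 4.47, 4.70 and 4.36 with vehicle, a difference of -0.026 ± 0.14 (95% interval -0.32 to 0.27). Neither was called (limma, adjusted p over 0.99), and the arrays of both groups overlapped at both times. With slide as a block the SE was 0.084 at both times. The 95% intervals were then -0.059 to 0.31 at 24 h and -0.21 to 0.16 at 6 h.

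Abca3 encodes the lipid transporter that pumps phospholipid into the lamellar body. Its probe, at chr17:24547066-24547125 on mm9, read 2.90, 3.18, 3.31 and 3.41 in 85% O2, against 2.37, 2.44, 3.01 and 2.76 in 21% O2. The array of 21% O2 with the highest value lay above the lowest in 85% O2, so the groups overlapped. The mean was 3.20 ± 0.22 in 85% O2 and 2.64 ± 0.30 in 21% O2 (SD, n = 4 each). The difference of 0.56 ± 0.18 was not called (limma, adjusted p = 0.0703, 95% interval 0.14 to 0.97). With the replicate number as a block it was called (adjusted p = 0.0436), as it was with a normexp background (0.63, adjusted p = 0.0396) and without 21% O2 replicate 3 (0.68, adjusted p = 0.0491). No other fit called it. The adjusted p (limma) reached 0.161 when single arrays were left out and 0.151 under the other alternatives, where the lowest difference was 0.41. The sign of the difference was positive in all fits run.

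With NaHS, Abca3 read 3.11, 2.99, 3.36 and 3.16 at 24 h, against 3.11, 3.03, 3.23 and 3.17 with vehicle. At 6 h it read 2.95, 3.19, 2.93 and 3.83 with NaHS, against 2.99, 2.85, 2.97 and 3.80 with vehicle. The replicate 4 arrays of both 6 h groups stood highest, and the other arrays lay close together. The differences were 0.021 ± 0.22 at 24 h (95% interval -0.45 to 0.50) and 0.073 ± 0.22 at 6 h (95% interval -0.40 to 0.55), and neither was called.

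Slc34a2 encodes the sodium-phosphate cotransporter of the apical membrane of type II cells. Its probe, at chr5:53462121-53462180, was well above background on 1 of 24 arrays, replicate 4 of 21% O2, where it read -5.03. On the other 23 arrays it was not well above background, and no fold is given. Among 5 other phosphate transporters and exporters of the list (the Slc34 and Slc20 families and Xpr1), 0 were called in any comparison.

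**Figure D2:**
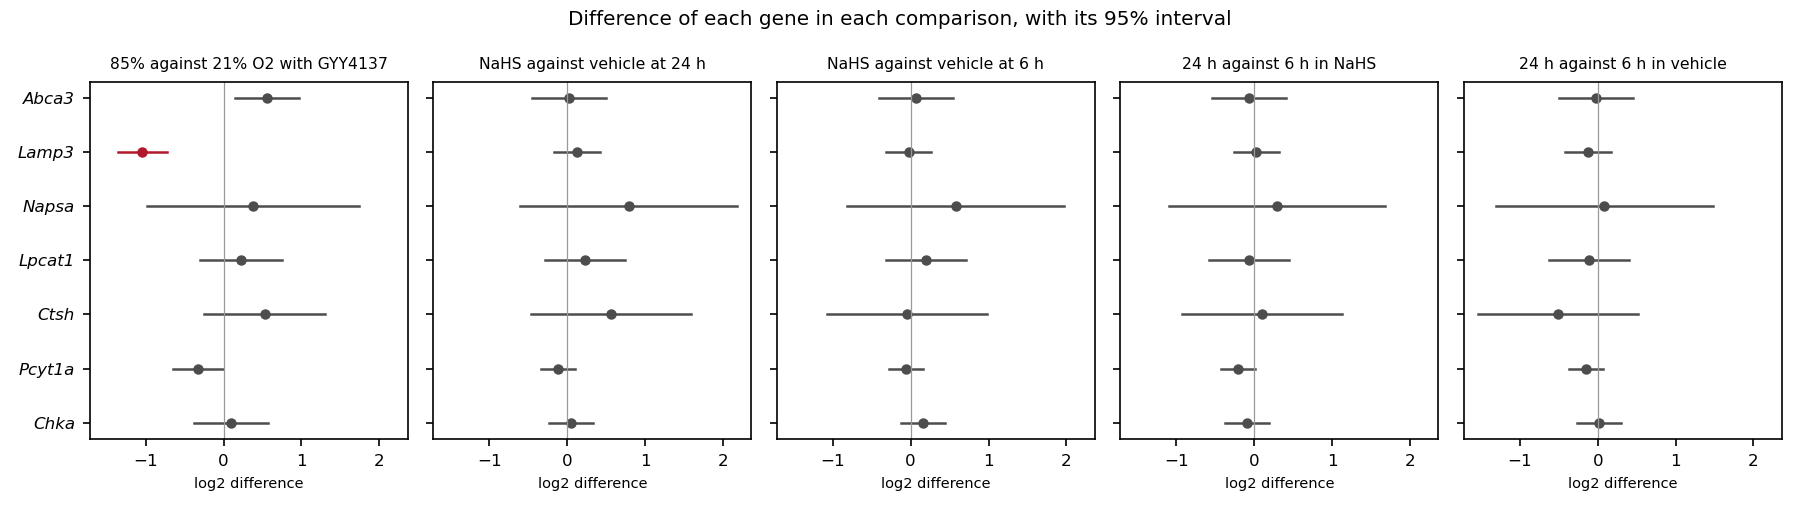
Log2 difference of each of the 7 tested genes (points) with its 95% interval (lines) in 5 comparisons (panels; x axis: log2 difference; y axis: genes; red: adjusted p under 0.05). Lamp3 in 85% against 21% O2, at -1.04, is the single called difference, and the Napsa intervals are the widest in each panel.

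The promoter windows of Lamp3 and Abca3 are shown because these genes had the smallest p-values in 85% against 21% O2. They run from 250 bases before to 50 bases after the RefSeq start site (GRCm38.p6). The Lamp3 window is chr16:19706316-19706615, minus strand, and the Abca3 window is chr17:24351773-24352072, plus strand. Capitals mark matches, on either strand, to the motifs searched. These were a forkhead motif (TGTTTAC), a sterol regulatory element (TCACNCCAC), an NKX2-1 motif (CTCAAG), a C/EBP motif (TTGCGCAA) and an antioxidant response element (TGACNNNGC).
Lamp3 promoter: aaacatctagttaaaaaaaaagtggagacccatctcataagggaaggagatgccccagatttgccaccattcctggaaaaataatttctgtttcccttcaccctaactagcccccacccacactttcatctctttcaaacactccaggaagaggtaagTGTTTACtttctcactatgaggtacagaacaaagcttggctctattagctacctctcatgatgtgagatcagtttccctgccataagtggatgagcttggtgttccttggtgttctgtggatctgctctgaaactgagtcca
Abca3 promoter: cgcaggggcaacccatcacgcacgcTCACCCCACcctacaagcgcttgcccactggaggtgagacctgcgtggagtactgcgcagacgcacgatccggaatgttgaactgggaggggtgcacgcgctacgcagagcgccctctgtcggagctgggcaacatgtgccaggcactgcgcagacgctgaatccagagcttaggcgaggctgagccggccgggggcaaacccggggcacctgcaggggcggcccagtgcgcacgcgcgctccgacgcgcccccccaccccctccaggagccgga

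The window of Lamp3 held the forkhead motif at -92 bases from the start site. Of all 32851 windows of that length 3.65% held it. Sterol regulatory elements were matched in the windows of Abca3 and Pcyt1a, against 1.24% of all windows. The C/EBP motif was matched in Slc34a2 alone (0.18% of all windows) and the antioxidant response element in Pcyt1a alone (12.39%), where a match overlaps the sterol regulatory element. The NKX2-1 motif was matched in 0 of the 6 members with a window, against 15.9% of all windows. RefSeq windows were matched for 6 of 8 genes, and Napsa and Ctsh had none in the table. These 6 genes had 8 windows, 3 of them those of Pcyt1a, which overlap in part. The sterol regulatory element of Pcyt1a is the same site in windows 1 and 2. Counts of genes and shares of windows are therefore not on 1 scale. A match is a description of these letters and not of binding.

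Napsa encodes napsin A, an aspartic protease that helps cut pro-surfactant protein B. Its SD within groups ran from 0.57 to 1.26, and among the probes that stand for the 7 tested genes it was the widest in each of the 6 groups. In 85% O2 it read -2.05, -1.34, 0.074 and -0.019, against -2.0, -1.95, -0.77 and -0.11 in 21% O2. In both groups the replicates 3 and 4 lay above the replicates 1 and 2, and the ranges overlapped. The difference of 0.37 ± 0.60 was not called (limma, adjusted p = 0.688, 95% interval -0.99 to 1.74). At 24 h it read -0.52, -0.86, 0.016 and 0.43 with NaHS, against -0.35, -1.84, -0.0030 and -1.90 with vehicle. The 2 low vehicle arrays, replicates 2 and 4, both lay on slide 2. The difference was 0.79 ± 0.65 in all and not called. Within slide 1 it was -0.076 ± 0.63 and within slide 2 it was 1.65 ± 0.71 (unadjusted p = 0.0576, limma, adjusted p = 0.495). At 6 h Napsa read -1.91, -0.57, -0.78 and 1.15 with NaHS, against -2.23, -1.36, -0.62 and -0.23 with vehicle, and the difference of 0.58 ± 0.65 was not called. With the replicate number as a block, the oxygen difference of Napsa was 0.37 ± 0.19, with a 95% interval of -0.10 to 0.85, and was not called (limma, adjusted p = 0.216). The intervals for NaHS ran from -0.60 to 2.18 at 24 h and from -0.81 to 1.97 at 6 h.

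Ctsh encodes cathepsin H, a lysosomal cysteine protease that takes part in processing the precursors of the hydrophobic surfactant proteins. It read 4.69, 5.0, 5.86 and 5.82 in 85% O2, against 4.64, 4.17, 5.25 and 5.18 in 21% O2. Here too the replicates 3 and 4 stood highest in both groups, and the difference of 0.53 ± 0.34 was not called (limma, adjusted p = 0.302, 95% interval -0.25 to 1.31). With the replicate number as a block it was 0.53 ± 0.16, with a 95% interval of 0.12 to 0.94, and was not called (limma, adjusted p = 0.0825). At 24 h it read 6.10, 5.38, 6.69 and 6.27 with NaHS, against 6.06, 4.58, 6.31 and 5.25 with vehicle, a difference of 0.56 ± 0.48. At 6 h it read 5.54, 5.90, 5.59 and 7.0 with NaHS, against 6.17, 5.21, 5.78 and 7.07 with vehicle, a difference of -0.052 ± 0.48. Neither was called, and in both 6 h groups replicate 4 stood highest, as for Abca3.

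Chka encodes choline kinase alpha, which takes the first step of phosphatidylcholine synthesis. The probe that stands for it, at chr19:3893508-3893567, read 1.55, 1.09, 1.17 and 1.15 in 85% O2, against 1.35, 1.56, 0.68 and 0.99 in 21% O2. The difference of 0.093 ± 0.21 was not called (limma, adjusted p = 0.78, 95% interval -0.38 to 0.57). The other 3 probes gave 0.010 ± 0.19, 0.0040 ± 0.30 and -0.30 ± 0.23, none called, so the probes of the gene did not share a sign. In NaHS against vehicle the same probe gave 0.048 ± 0.13 at 24 h and 0.16 ± 0.13 at 6 h. The probe at chr19:3866971-3867030, whose transcript record was matched by no accession of the RefSeq table, gave the largest difference of the 4 at 6 h. It read -3.47, -3.58, -2.98 and -3.14 with NaHS, against -4.16, -4.79, -5.03 and -2.77 with vehicle. One of these vehicle values was not above background, and the difference of 0.90 ± 0.40 had an unadjusted p of 0.0417 and was not called (limma, adjusted p over 0.99).

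Pcyt1a encodes the enzyme CCT-alpha that sets the rate of phosphatidylcholine synthesis. It read 3.44, 3.5, 3.26 and 3.21 in 85% O2, against 3.84, 3.77, 3.72 and 3.37 in 21% O2. One array of 21% O2, replicate 4, lay within the range of 85% O2. The difference of -0.32 ± 0.14 was not called (limma, adjusted p = 0.144, 95% interval -0.65 to -0.0011). Leaving out single arrays gave differences from -0.43 to -0.27. With the replicate number as a block the difference was -0.32 ± 0.12, with a 95% interval of -0.62 to -0.033, and was not called (limma, adjusted p = 0.113). With NaHS, Pcyt1a read 3.32, 3.27, 3.28 and 3.27 at 24 h, against 3.27, 3.5, 3.29 and 3.54 with vehicle, a difference of -0.11 ± 0.10. At 6 h it read 3.51, 3.49, 3.49 and 3.48 with NaHS, against 3.79, 3.62, 3.46 and 3.33 with vehicle, a difference of -0.056 ± 0.10. Neither was called, and in both the NaHS arrays lay closer together than the vehicle arrays.

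Lpcat1 encodes the acyltransferase that puts saturated chains back on lysophosphatidylcholine. The probe that stands for it, at chr13:73653193-73653252, read -0.62, -0.45, 0.037 and 0.35 in 85% O2, against -0.42, -0.62, -0.47 and -0.057 in 21% O2. The difference was 0.22 ± 0.23 with that probe and -0.12 ± 0.24 with the probe shown above, so the 2 probes had opposite signs, and neither was called. In NaHS against vehicle the same probe gave 0.23 ± 0.24 at 24 h and 0.19 ± 0.24 at 6 h. The other gave 0.40 ± 0.23 and 0.11 ± 0.23 at these times, and 0 of the 4 were called.

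The time of culture after the start of treatment was compared within each treatment. In vehicle 0 of the 7 genes were called between 24 h and 6 h, beside 0.606% of all genes, and in NaHS 0, beside 0.0272%. With slide as a block 0 of the 7 were called in either, beside 2.14% and 0.0996% of all genes, and 0 in NaHS against vehicle. With NaHS, Pcyt1a ran from 3.27 to 3.32 at 24 h and from 3.48 to 3.51 at 6 h. The difference of -0.21 ± 0.10 was not called (limma, adjusted p = 0.73). Ctsh differed by -0.51 ± 0.48 in vehicle and by 0.11 ± 0.48 in NaHS. Its within-slide values had opposite signs, 0.21 on slide 1 and -1.22 on slide 2 in vehicle, and 0.83 and -0.62 in NaHS. Napsa gave 1.25 and -1.08 in vehicle and 1.10 and -0.51 in NaHS. Abca3, Lpcat1 and Chka also differed in sign between the slides in both treatments, while Lamp3 kept its sign in each. For the difference between the NaHS effects at 24 h and 6 h, 0 of 7 genes and 0 of 33148 were called. Sftpa1, a surfactant protein of the same cells, averaged -4.97 ± 0.68 at 24 h and -1.83 ± 0.43 at 6 h in vehicle (SD, n = 4 each), and fell by 3.14 ± 0.51 (limma, adjusted p = 0.024). That call was lost in 6 of the 16 fits that left out 1 array and within each slide, and a normexp background gave -1.14.

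**Figure D3:**
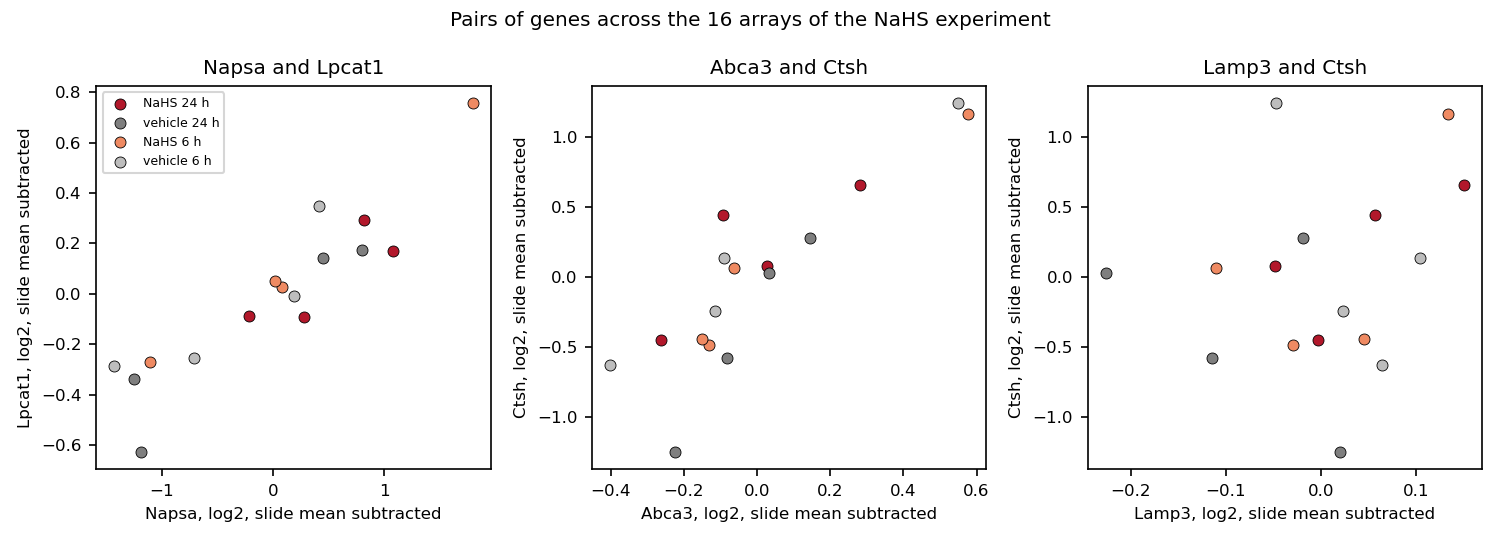
Levels of 3 pairs of genes on the 16 arrays of the NaHS experiment (axes: log2 level after the mean of the array's slide was subtracted; points: arrays, coloured by group). Napsa and Lpcat1 vary together (r = 0.916), as do Abca3 and Ctsh (r = 0.884), and for Lamp3 and Ctsh r = 0.208.

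Abca3, Ctsh, Lpcat1 and Napsa varied together from array to array. Over the 16 arrays of the NaHS experiment, after the slide mean was subtracted, Napsa and Lpcat1 had Pearson r = 0.916 (permutation p = 1e-05, the smallest these permutations can give) and Spearman rho = 0.909 (permutation p = 4e-05). Abca3 and Ctsh had r = 0.884 (permutation p = 0.00016) and rho = 0.821 (permutation p = 0.00058). All 6 pairs among these 4 genes had an adjusted p from 0.00021 to 0.035 for r and from 0.00084 to 0.0305 for rho, over the 21 pairs of members. Their r without the 2 arrays farthest from the median was between 0.564 and 0.893, and within single slides between 0.482 and 0.952. For Lamp3 the r with the 6 other members ran from 0.12 to 0.391, the largest with an adjusted p of 0.214, and for Chka the r with these 4 genes ran from 0.322 to 0.526, with adjusted p from 0.287 to 0.5. Pcyt1a went the other way from Napsa, with r = -0.651 (permutation p = 0.00663, adjusted 0.0232) and rho = -0.715 (permutation p = 0.00393, adjusted 0.0165), and r = -0.765 without the 2 farthest arrays. Within slide 1 that r was -0.897, and within slide 2 it was -0.445. Marker levels were set beside the members. With the mean of 12 other type II markers Ctsh had r = 0.908 (permutation p = 6e-05) and with the mean of 9 type I markers r = 0.939 (permutation p = 1e-05, the smallest these permutations can give), over 28 such relations with adjusted p of 0.00056 and 0.00014. The matching Spearman rho were 0.885 (permutation p = 0.0003) and 0.918 (permutation p = 4e-05). Without the 2 farthest arrays r was 0.85 and 0.939, and within slides 1 and 2 it was 0.729 and 0.942 for type II markers and 0.882 and 0.96 for type I markers. For type II markers Lpcat1 had r = 0.859, Abca3 0.791 and Napsa 0.689. Within slide 1 it was 0.324 for Lpcat1, 0.606 for Abca3 and 0.129 for Napsa, against 0.942, 0.822 and 0.872 within slide 2. For type I markers Lpcat1 had r = 0.846, Abca3 0.868 and Napsa 0.771. Within slide 1 these were 0.596, 0.963 and 0.548, and within slide 2 they were 0.916, 0.853 and 0.881. With the mean of 7 smooth muscle markers Ctsh had r = -0.702 (permutation p = 0.0132, adjusted 0.0411) and rho = -0.582 (permutation p = 0.0477, adjusted 0.111). That relation did not hold within both slides, with r of 0.249 on slide 1 and -0.921 on slide 2, and r was -0.476 without the 2 farthest arrays. At 6 h replicate 4 had the highest type II mean of its group, 1.64 with NaHS and 1.23 with vehicle. The part of cell makeup in these relations was not tested.

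In the GYY4137 experiment the arrays fell into pairs on both slides, replicates 3 and 4 above replicates 1 and 2, so no pooled correlation is given. In 85% O2 the mean of 11 other type II markers was 0.41 and 0.38 on replicates 3 and 4 and -0.75 and -0.44 on replicates 1 and 2. In 21% O2 it was 0.25 and 0.77 on replicates 3 and 4 and -0.26 and -0.60 on replicates 1 and 2. Abca3, Ctsh and Napsa had the same order in both groups, while Lamp3 in 85% O2 was lower on replicates 3 and 4 than on replicates 1 and 2.

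Genes whose level followed each member most closely over the 16 arrays, by Pearson r after subtraction of the slide mean among 16487 genes, are named as a description. Ctsh was followed by Sorl1 (r = 0.985) and 2200002D01Rik (0.981), and Napsa by St6galnac2 (0.978) and Tinag (0.976). Lpcat1 was followed by Grk3 (0.962) and Tom1l1 (0.959), and Abca3 by Rasgef1a (0.950) and Arhgap44 (0.935). Lamp3 was followed less closely, by Sf3b5 (0.813) and Rrp15 (0.806). Pcyt1a was followed by Tcf7l2 (0.913) and Gng7 (0.891), and Chka by Daglb (0.842) and Pip4k2c (0.768). These arrays share slides, and the part of cell makeup in this likeness was not tested.

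The other genes of the pathway were taken from 7 lists with 107 measured genes. In 85% against 21% O2, 14 of them were called, 8 higher and 6 lower, or 13.1% beside 15.8% of all genes. A share near that of all genes is no result about the lists. Of the 14 calls, 8 held in each fit that left out 1 array and under each of the 8 other alternatives.

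In phosphatidylcholine and phospholipid synthesis 4 of 21 genes were called, and the median difference was -0.17, against 0.067 over all genes. Selenoi, the ethanolamine phosphotransferase, fell by 0.94 ± 0.11 (limma, adjusted p = 0.00314), and Etnk1, ethanolamine kinase, fell by 0.90 ± 0.17 (adjusted p = 0.0137). Agpat2, an acyltransferase of phosphatidic acid synthesis, was higher by 0.55 ± 0.12 (adjusted p = 0.0235). Chkb, the second choline kinase, which was named after its value was seen, was higher by 0.45 ± 0.12 (adjusted p = 0.0381), and with the replicate block its adjusted p was 0.0644. Both ethanolamine genes held in all alternatives run, while Agpat2 was called in 4 of 8 fits that left out 1 array and Chkb in 0 of 8. Median centring gave Agpat2 0.40 (adjusted p = 0.0761) and Chkb 0.31 (adjusted p = 0.132).

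In formation and secretion of the lamellar body and related organelles 3 of 32 genes were called, all higher. They were Stx3, a syntaxin of membrane fusion, by 0.87 ± 0.12 (adjusted p = 0.00438), Vps33a, a subunit of the vesicle tethering complexes of lysosomes, by 0.74 ± 0.11 (adjusted p = 0.00619), and Abcg1, a sterol exporter, by 1.55 ± 0.26 (limma, adjusted p = 0.00894). All 3 held in all alternatives run. The median of the list was 0.11. Lamp1 and Lamp2, the lysosomal relatives of Lamp3, were on this list and were not called.

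In remodelling and recycling 1 of 13 genes, Npc1, the lysosomal cholesterol transporter, was called, higher by 0.62 ± 0.14 (limma, adjusted p = 0.0228), with 0.48 (adjusted p = 0.057) under median centring and a call in 3 of 8 fits that left out 1 array. Among surfactant proteins and other lysosomal proteases 1 of 11, Ctsd (cathepsin D), was called, higher by 0.71 ± 0.13 (adjusted p = 0.013), and it held in all alternatives. The median of these lists was 0.0063 and 0.057.

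Fatty acid supply had 4 called genes of 16, with a median of -0.29 and 3 of 16 positive differences. Slc27a2, a fatty acid transporter and acyl-CoA synthetase, was higher by 1.10 ± 0.16 (limma, adjusted p = 0.00587), in all alternatives run. Elovl6, which lengthens palmitate, fell by 1.38 ± 0.33 (adjusted p = 0.0273). Srebf1, the lipogenic transcription factor, fell by 0.55 ± 0.15 (adjusted p = 0.0386), and with the replicate block its adjusted p was 0.0808. Insig1, its sterol-dependent anchor, named after its value was seen, fell by 1.03 ± 0.29 (adjusted p = 0.0478). Elovl6, Srebf1 and Insig1 were called in 4, 2 and 1 of the 8 fits that left out 1 array. Of 9 transcription factors of the type II cell 1 was called, Cebpd, which fell by 1.28 ± 0.19 (adjusted p = 0.00621) in all alternatives run.

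**Figure D4:**
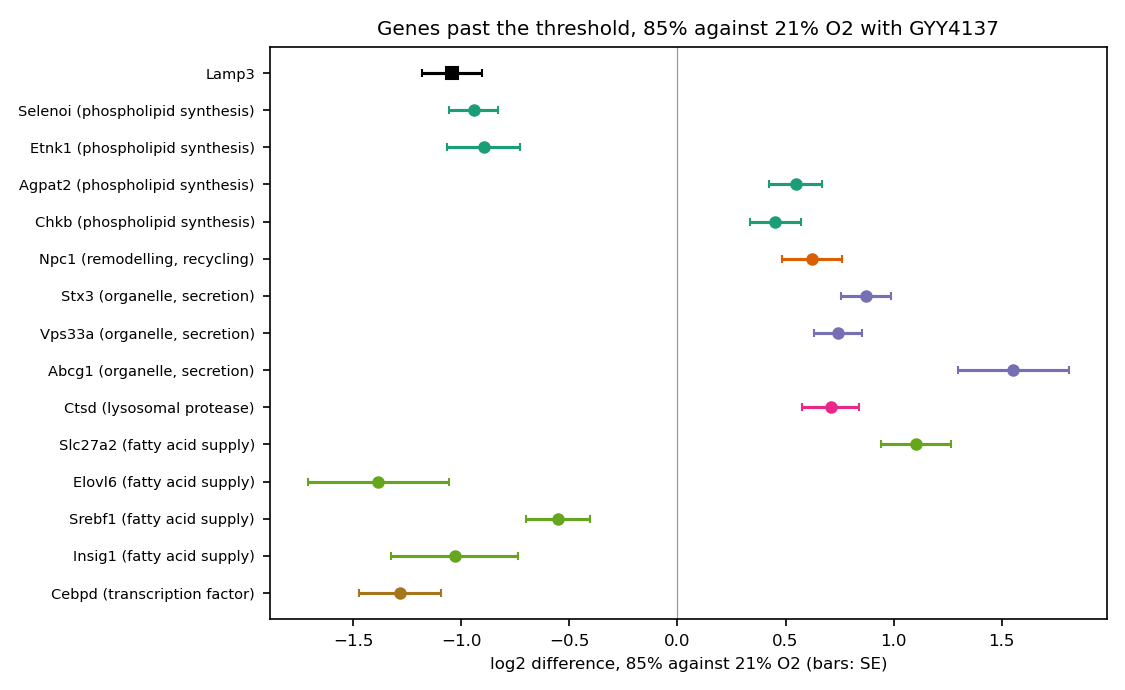
Log2 difference between 85% and 21% O2 (x axis; bars: SE) of Lamp3 (square) and of the 14 called genes of the pathway lists (circles, coloured by list; y axis: genes). Lamp3 at -1.04 lies with Selenoi, Etnk1, Insig1, Elovl6, Srebf1 and Cebpd on the lower side, and Abcg1 at 1.55 is the highest.

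In NaHS against vehicle 0 of the 107 pathway genes were called at 24 h or at 6 h, and in 24 h against 6 h with NaHS 0. In vehicle 2 of 107 were called between 24 h and 6 h, beside 0.606% of all genes. They were Sftpa1, given above, and Csf2ra, a subunit of the GM-CSF receptor that takes part in surfactant clearance, which was higher at 24 h by 0.75 ± 0.14 (limma, adjusted p = 0.0319). The call of Csf2ra was lost in 8 of 16 fits that left out 1 array, and it held in 11 of 16 other alternatives. It was lost with median centring, with no filter on low signals, with only the groups of the comparison in the fit and within each slide. With slide as a block 6 of 107 were called, or 5.61% beside 2.14% of all genes, 5 of them among the 11 surfactant proteins and lysosomal proteases. The 4 added calls were higher at 24 h: the cathepsin genes Ctsd by 0.53 ± 0.10 (limma, adjusted p = 0.0253), Ctsz by 0.41 ± 0.095 (adjusted p = 0.0458) and Ctsb by 0.45 ± 0.11 (adjusted p = 0.0476), and the ubiquitin ligase gene Nedd4 by 0.48 ± 0.10 (adjusted p = 0.0353), with Ctsz and Ctsb named after their values were seen. Without the block these 4 were not called. Of 78 cell type markers 6 were called with slide as a block, or 7.69%, and 4 without it, or 5.13%. These 4 were the smooth muscle gene Notch3, higher by 1.24 ± 0.16, the fibroblast gene Thy1, higher by 1.16 ± 0.24, the club cell gene Scgb3a1, lower by 3.72 ± 0.68, and Sftpa1. The mean over 7 smooth muscle markers ran from 4.73 to 4.99 at 24 h and from 3.42 to 4.46 at 6 h in vehicle. The part of these cells in the difference was not tested.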

How the data were processed

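The authors deposited 1-colour (Cy3) Agilent scanner files and a value table. The scanner intensity used here is, per the file headers, the processed signal that Feature Extraction 10.7.3.1 (Agilent) wrote for each spot. The deposited value table holds log2 values whose steps are not given in the sources used here, and it was used as an alternative only. From log2 of the processed intensity each array's 75th percentile was subtracted, and probes above background on at least 4 arrays of an experiment were kept. The probe with the highest mean stood for a gene. Each experiment was fitted with limma 3.58.1 in R 4.3.3, with group means and Benjamini-Hochberg adjustment over all genes at 0.05. Tables and figures used Python with numpy, pandas, scipy and matplotlib. Intervals are 95% intervals. The fits were tested on simulated data with known log2 changes. Each simulation changed 100 genes by 1 and 100 by 2, up or down, and held no shift between slides. In NaHS against vehicle at 24 h, 33 of 100 genes changed by 1 were called and 60 of 100 changed by 2. In 85% against 21% O2 it was 41 and 81 of 100. The real data of that comparison had 5452 of 34530 genes called. The adjustment was thus less strict there than in the simulation, and these 2 shares do not carry over to it. A difference that was not called can still be a real change of 1 or 2 on the log2 scale. Precision is limited by 4 arrays a group.

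Members and gene lists were chosen with earlier results of these data known. Named are all members, per list and comparison up to 3 called genes with the smallest p, up to 2 called markers per list, and the 2 genes most like each member. In the GYY4137 experiment same-numbered arrays, which share an array position on 2 slides, deviated together (correlations of 0.183 to 0.257 over 4 pairs, against -0.216 to 0.165 for other pairs), and the number was taken to pair them. The labels state no pairing, and it was read from these same arrays. Subtracting group means lowers the other pairs when same-numbered pairs are high. Array position and a pairing of cultures cannot be told apart. In the NaHS experiment same-numbered arrays correlated at 0.536 to 0.754 and differently numbered arrays of the same slide at 0.42 to 0.703. After the slide was removed same-numbered pairs ran from -0.172 to 0.274, so the numbers were not taken to pair arrays beyond the slide. Alternatives were the background, scaling, filter, probe rule, arrays in the fit, slide, replicate block and leaving out each array.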

Additional observations from a re-analysis of the deposited data

Results flagged for a closer look

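In 65 groups of 4 arrays with all arrays above background, 2 had an array far from the others by Dixon's ratio, and chance flags about 1 in 20 groups. Abca3 was 3.80 on replicate 4 of vehicle at 6 h, against 2.85 to 2.99 on the other 3 arrays. One probe of Chka was 0.54 on replicate 3 of 85% O2, against 0.78 to 0.81 on the other 3.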

How the results depend on the processing

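In 85% against 21% O2, 1 of the 7 members was called, and 2 with a normexp background and with the replicate block, the second being Abca3. Leaving out single arrays gave 1 to 2 members called, with 2 only without 21% O2 replicate 3. In the other 5 comparisons 0 members were called under every alternative run. Lamp3 in 85% against 21% O2 kept its sign and its call throughout. Of 1225 member differences under alternatives 95 changed sign, 0 of them called before or after. Many of the 1225 could not change. Blocks on slide or replicate number over all arrays, and fits with only the compared groups, leave each difference as it is. So does leaving out an array outside the comparison. The 95 are therefore no share of values that were free to change. Over all genes, 24 h against 6 h called 201 genes in vehicle (0 to 1026 under the alternatives, 6 to 309 without single arrays) and 9 in NaHS (0 to 140 and 0 to 10). In 85% against 21% O2 it was 5452 (4082 to 5969, and 2062 to 6753 without single arrays). NaHS against vehicle at 6 h called 0, and 1 under 1 alternative, with 196 genes at an unadjusted p under 0.05 at 6 h and 734 at 24 h. These 2 counts are below a share of 0.05 of all genes. Among cell type markers Cd8a, called in 85% against 21% O2, gave 0.61 to 0.74 in 7 fits that left out 1 array and -0.37 without 85% O2 replicate 4, where another probe had the highest mean, so that this value is not of the same probe. It was the single such switch among 498 values of called list genes, and 0 of the 7 members switched probe in any fit. The replicate block changed no other member call.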
